A study of Rattus norvegicus with 12 samples.

Results

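The locus of Fli1 on rat chromosome 8 was examined over chr8:33542301-33583300 of the Rnor 6.0 assembly, a stretch of 41 kb in 410 windows of 100 bp, out of 27820300 windows in the genome. The stretch was chosen by a differential DNA methylation region (DMR) of stromal cells, 900 bp in 9 windows at chr8:33562301-33563200. The study called such regions on the p-values of its lineage comparison in stromal cells. Genes were assigned to them by genomic proximity, here Fli1. The stretch holds that region with 20 kb on each side. The stromal read counts of the 2 lineages therefore selected the locus, and they are given here as a description without a test. The lineage comparison in epithelial cells and the comparison of the cell types did not enter the choice and were tested. The epithelial pools came from the same groups of rats as the stromal pools. Their lineage comparison at the region is therefore not independent of the choice.

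Fli1 is a transcription factor of the ETS family, whose members bind DNA through a shared ETS domain that recognizes a GGA core. It is best known for its part in blood cell and blood vessel development, where it drives genes of endothelial cells and of megakaryocytes, and for the fusion genes of Ewing sarcoma. Other ETS genes, such as ERG, take part in fusions in human prostate cancer. In the RefSeq annotation of the later GRCr8 assembly Fli1 lies, among protein-coding genes, between Kcnj1, a potassium channel gene, and Ets1, another ETS gene. Which windows of the locus are exonic, intronic or outside the gene was not analysed here, because no annotation of Rnor 6.0 was used.

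Methylated DNA immunoprecipitation and sequencing (MeDIP-Seq) pulls down DNA fragments with an antibody against 5-methylcytosine, so that the read count of a window rises with both its methylation and its number of methylated CpG sites. Counts are therefore compared between pools at the same window, and not read as percent methylation. The DNA came from ventral prostate epithelial and stromal cells of F3 generation Hsd:Sprague Dawley SD male rats aged 19 to 21 days. In the vinclozolin lineage the gestating F0 generation females had been injected intraperitoneally with vinclozolin, an antiandrogenic fungicide, at 100 mg/kg/day in DMSO on gestation days 8 to 14. In the control lineage they had received DMSO alone on the same days, and the F3 generation itself was not exposed. The 12 pools formed 4 groups of 3, and each pool combined several rats. The epithelial and stromal cells were separated by settling and centrifugation from the same groups of rats, so the cell types are different libraries but not different animals. The identity of the cells could not be checked against marker genes in these counts. In a pool of many cells, less methylation per cell and fewer cells that carry the methylated site cannot be told apart.

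In epithelial cells a control lineage pool held from 60600121 to 87262275 window counts and a vinclozolin lineage pool from 74605038 to 109250697. In stromal cells the totals lay between 57135700 and 73948807 in the control lineage and between 71843106 and 112304623 in the vinclozolin lineage. A read that overlaps several windows is counted in each. No count in the locus exceeded 142, below the 300 at which the deposited counts end. Values are given below as counts per 1000000 counts of the pool (CPM), adjusted by the normalization factors of edgeR. Distances are given from the start of the 900 bp region.

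Methylation signal in the Fli1 locus was concentrated in a few narrow peaks. Over the 12 pools the locus held 26210 counts, and the median window held 20.5, against 13 for the windows of the whole genome. Of the 410 windows 12 had no count in any pool, which was 2.93%, against 11.1% of all windows. The 37 windows at or above the 95th percentile of the genome lay in 11 runs and held 54.8% of the counts. Of these 19 reached the 99th percentile. The longest run began at 9100 bp and held 20.0% of the counts in 10 neighboring windows. The run of 3 windows at the start of the region itself held 8.98%, and the window at 100 bp within it had the largest sum of the locus, 1364 counts over the 12 pools. A run of 5 windows from 1800 bp held 6.68%, and a run of 4 windows from 19400 bp held 5.06%.

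**Figure D1:**
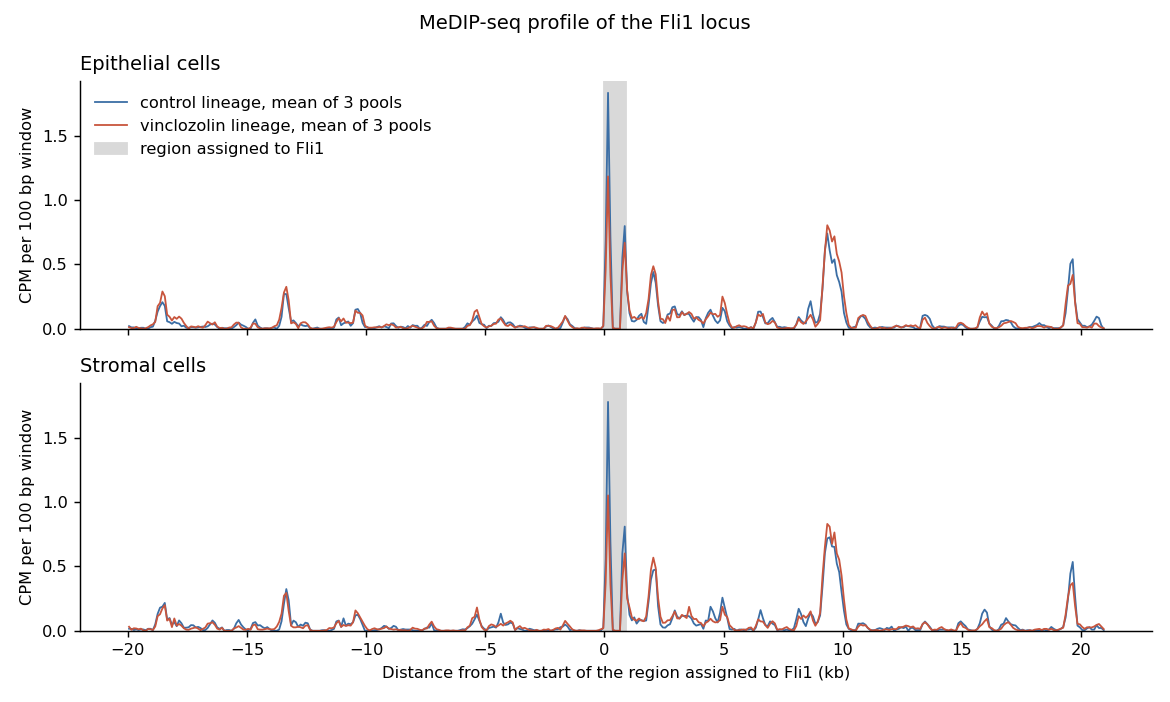
Mean CPM per 100 bp window across the Fli1 locus against the distance from the start of the region in kb, for epithelial cells above and stromal cells below, with control lineage pools in blue and vinclozolin lineage pools in red (n = 3 pools per line). The same peaks stand in all 4 groups, and the tallest, within the shaded 900 bp region, reached 1.83 CPM in control and 1.18 CPM in vinclozolin lineage epithelial cells.

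The peaks stood at the same positions in both cell types and in both lineages. Their mean relative heights differed between the lineages as described below, but in epithelial cells no such difference had an adjusted p under 0.05 (edgeR quasi-likelihood test). Across the 410 windows the mean CPM of epithelial and stromal cells correlated with a Pearson r of 0.982 in the control lineage and of 0.982 in the vinclozolin lineage. Between the lineages r was 0.939 in epithelial and 0.939 in stromal cells. Between single pools r over the 41 bins of 1 kb lay between 0.882 and 0.990. These coefficients describe windows that share libraries, reads and base composition between the groups, and windows are not replicates. They include the windows of the region, which the stromal lineage contrast selected, so no conclusion is drawn from the lower r between the lineages.

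The 900 bp region held 2 peaks with a stretch without reads between them. The left peak filled the windows at 0, 100 and 200 bp, and the right peak the windows at 700 and 800 bp. The windows at 400, 500 and 600 bp had no count in any of the 12 pools, and the window at 300 bp had 6 counts in all. Whether reads can be aligned to this stretch was not analysed here, so its zeros are not read as a lack of methylation. The edges of the region were not alike. The window just outside on the left, at -100 bp, held 21 counts over the 12 pools, against 488 in the first window inside. On the right the signal ran on past the edge, with 680 counts in the last window inside and 277 in the first window outside.

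**Figure D2:**
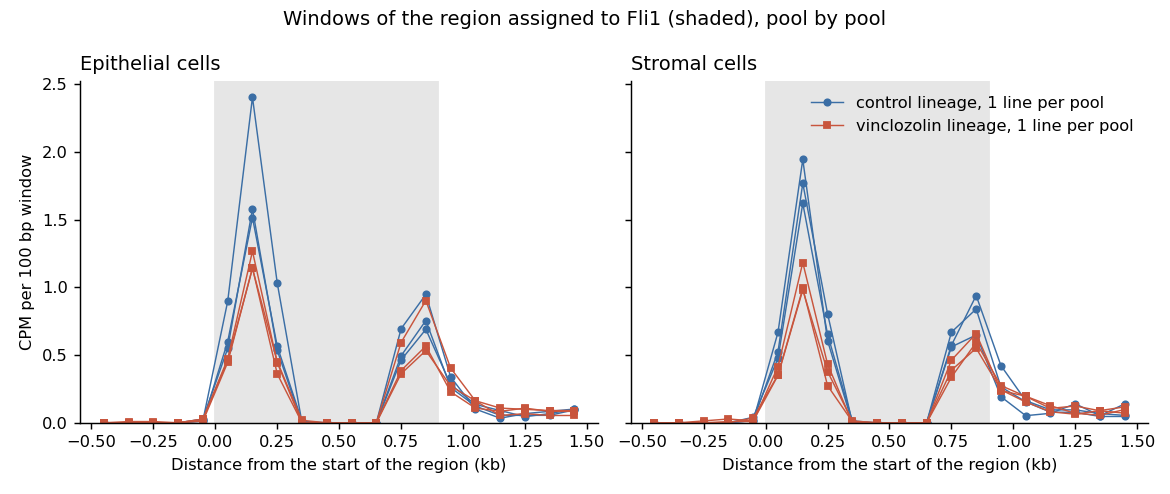
CPM per 100 bp window around the region assigned to Fli1 (shaded), against the distance from its start in kb, with 1 line per pool (control lineage in blue, vinclozolin lineage in red). At the left peak every vinclozolin lineage pool lies below every control lineage pool in both cell types. At the window at 800 bp the pools of the lineages overlap in both cell types, and at 700 bp they overlap in epithelial cells.

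The region had a lower CPM in vinclozolin lineage than in control lineage pools of both cell types. In stromal cells, whose contrast chose the region, it held 246, 304 and 314 counts in the control lineage pools and 329, 289 and 203 in the vinclozolin lineage pools, whose totals differed. After scaling these were 4.31, 4.73 and 4.28 CPM against 2.97, 2.56 and 2.85 CPM, with means of 4.44 ± 0.253 and 2.79 ± 0.210 CPM (SD, n = 3). The stromal groups stood well apart, with a log2 difference of the means of -0.67.

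In epithelial cells the region held 353, 340 and 285 counts in the control lineage pools and 241, 328 and 273 in the vinclozolin lineage pools. This was 5.98, 3.85 and 3.92 CPM against 2.91, 2.97 and 3.68 CPM, with means of 4.58 ± 1.21 and 3.18 ± 0.431 CPM (SD, n = 3) and a log2 difference of -0.52. The epithelial groups did not overlap either, but the highest vinclozolin lineage pool came close to the lowest control lineage pool. Control lineage pool 1, the least deeply sequenced epithelial pool, stood above the other two. This library also stood apart over the whole genome, with a chi-square per 41 kb tile of 5.23 and 5.47 against the other control lineage pools, which had 2.98 between them, and of at most 4.13 between the pools of any other group. Its part in the difference is given below by the values without it.

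The 1 kb bin that starts with the region, which adds the window at 900 bp, was the unit of the test. In epithelial cells its log2 difference, vinclozolin over control, was -0.48 ± 0.15 (SE) with an adjusted p = 0.437 (edgeR quasi-likelihood test, Benjamini-Hochberg over all bins tested). It had the smallest p-value of the bins of the locus but did not pass the threshold of 0.05 after adjustment. Without epithelial control lineage pool 1 the difference was -0.25, with an adjusted p = 0.669 by edgeR. In stromal cells the same bin had 4.73 ± 0.248 CPM in the control and 3.05 ± 0.193 CPM in the vinclozolin lineage (SD, n = 3). Its difference of -0.64 is given as a description.

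Both peaks of the region had lower mean CPM in the vinclozolin lineage, and the pools separated more clearly at the left one. The left peak had 3.23 ± 0.960 CPM in control and 2.06 ± 0.116 CPM in vinclozolin lineage epithelial cells, and 3.03 ± 0.244 and 1.79 ± 0.216 CPM in stromal cells, and the lineages did not overlap in either cell type. The right peak had 1.35 ± 0.259 and 1.11 ± 0.332 CPM in epithelial cells, where the pools overlapped, and 1.41 ± 0.174 and 0.997 ± 0.108 CPM in stromal cells, where they did not. The ratio of left to right peak counts overlapped between the lineages in both cell types, at 2.36 ± 0.256 against 1.93 ± 0.429 in epithelial and 2.17 ± 0.374 against 1.81 ± 0.325 in stromal cells. A different size of the lineage difference at the 2 peaks was thus within the spread between pools.

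At the level of single windows the summit at 100 bp had 142, 134 and 115 counts in the epithelial control lineage pools and 95, 126 and 94 in the vinclozolin lineage pools. Its log2 difference was -0.61 ± 0.17 (SE), with an adjusted p = 0.258 in the edgeR quasi-likelihood test, the smallest adjusted p of the 212 locus windows tested. The window at 200 bp had 61, 50 and 39 against 30, 50 and 33 counts and a difference of -0.71 ± 0.21 (adjusted p = 0.333, edgeR). The first window of the region followed with -0.54 ± 0.21 (adjusted p = 0.548, edgeR). Without epithelial control lineage pool 1 the differences of these 3 windows were -0.39 at 100 bp, -0.38 at 200 bp and -0.32 at 0 bp, with adjusted p-values of 0.455, 0.731 and 0.778 by edgeR. In stromal cells the summit had 101, 125 and 119 counts in the control and 131, 112 and 70 in the vinclozolin lineage pools, which was 1.78 ± 0.162 against 1.05 ± 0.113 CPM. The right peak windows at 700 and 800 bp had epithelial differences of -0.31 ± 0.22 and -0.27 ± 0.19, each within 2 standard errors of 0. Neither they nor the window at 900 bp, with 0.02 ± 0.26, had an unadjusted p-value under 0.05 in the edgeR test.

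The lower CPM of the region was not shared by the locus as a whole. All 410 windows together had 26.4 ± 2.47 CPM in control and 27.2 ± 1.20 CPM in vinclozolin lineage epithelial cells, a log2 difference of 0.05 ± 0.056 (SE) with an adjusted p = 0.756 in the edgeR test over 41 kb tiles, in which 1.06% of all tiles had an adjusted p under 0.05. In stromal cells the locus had 27.5 ± 0.779 and 26.5 ± 0.611 CPM, a difference of -0.06 ± 0.051 (SE). In both cell types the pools of the lineages overlapped. Without the region, the remaining windows had 21.8 ± 1.34 and 24.1 ± 0.776 CPM in epithelial cells, where every vinclozolin lineage pool lay above every control lineage pool, and 23.1 ± 1.03 and 23.7 ± 0.593 CPM in stromal cells, where they overlapped. This sum was not tested. Taken alone, the windows left of the region and those right of it each overlapped between the epithelial lineages.

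The share of the locus counts that fell in the region does not depend on the scaling of a library. It was 20.5%, 15.0% and 16.0% in the epithelial control lineage pools and 10.9%, 11.2% and 12.9% in the vinclozolin lineage pools. In stromal cells it was 15.4%, 17.8% and 15.3% against 10.98%, 9.67% and 11.01%. The means were 17.2 ± 2.90% and 11.7 ± 1.05% in epithelial and 16.2 ± 1.399% and 10.6 ± 0.768% in stromal cells, and the lineages stood apart in both. The stromal shares are a description, since the stromal lineage contrast chose the region. A two-sided exact permutation test of 3 against 3 pools cannot give a p-value below 0.1, so no such test was used for single values.

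**Figure D3:**
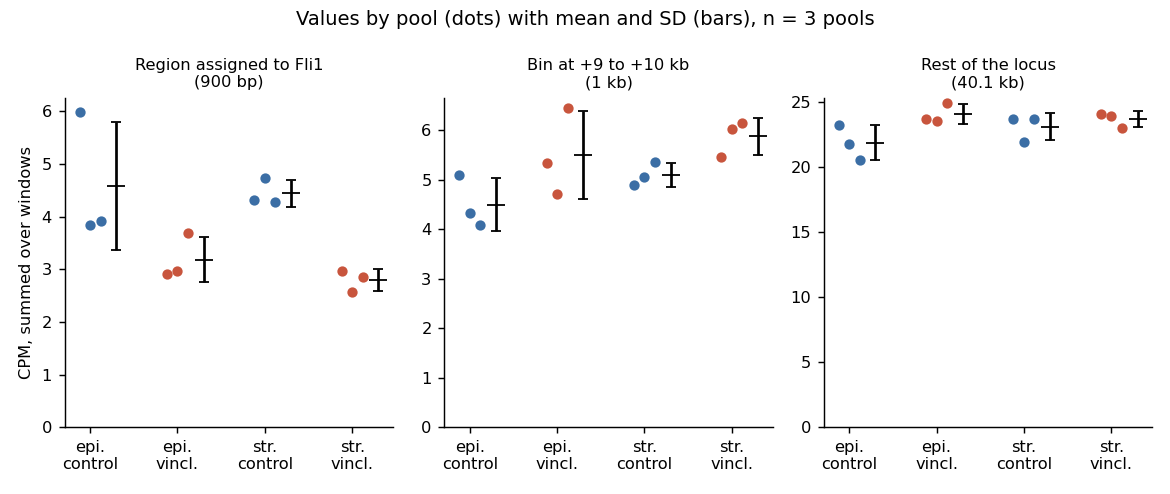
CPM summed over the 900 bp region, over the 1 kb bin from 9 to 10 kb and over the rest of the locus, with a dot for each pool and a bar for the mean and SD of 3 pools, by cell type (epi., epithelial; str., stromal) and lineage (vincl., vinclozolin). In the region the vinclozolin lineage pools lie below the control lineage pools in both cell types, with group means of 3.18 against 4.58 CPM in epithelial and 2.79 against 4.44 CPM in stromal cells.

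The bin with the most counts over the 12 pools, from 9 to 10 kb, had mean differences of the opposite sign. Its mean CPM was above that of the bin of the region in every group but control lineage epithelial cells. There the bin of the region had 6.32 CPM against 5.10 in pool 1, 4.13 against 4.32 in pool 2 and 4.18 against 4.08 in pool 3, so its higher mean rested on pool 1. In epithelial cells it held 301, 382 and 297 counts in the control and 443, 521 and 479 in the vinclozolin lineage pools, with means of 4.50 ± 0.532 and 5.50 ± 0.884 CPM that overlapped between pools. Its log2 difference was 0.29 ± 0.13 (SE) with an adjusted p = 0.676 in the edgeR test, and 0.16 without vinclozolin lineage pool 3 (adjusted p = 0.920). In stromal cells it had 5.10 ± 0.236 and 5.88 ± 0.373 CPM, with every vinclozolin lineage pool above every control lineage pool. The ratio of the counts of the region to those of this bin, which no scaling can change, was 1.17, 0.890 and 0.960 in the epithelial control lineage pools and 0.544, 0.630 and 0.570 in the vinclozolin lineage pools. In stromal cells it was 0.882, 0.935 and 0.799 against 0.545, 0.425 and 0.462. The region thus held about as many counts as the bin in control lineage epithelial cells (1.01 ± 0.147) and fewer in vinclozolin lineage epithelial cells (0.581 ± 0.0439), and the corresponding stromal means were 0.872 ± 0.0687 and 0.477 ± 0.0612. These stromal ratios, too, describe the contrast that chose the region.

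The right shoulder of that peak held the longest run of low p-values in epithelial cells. The 5 neighboring windows from 9700 to 10100 bp each had an unadjusted p-value under 0.05 in the edgeR test, with log2 differences from 0.48 to 1.28. The window at 10000 bp had the third smallest p-value of the locus, with 6, 9 and 12 counts in the control and 19, 27 and 21 in the vinclozolin lineage pools, a difference of 1.02 ± 0.32 and an adjusted p = 0.375 (edgeR). In stromal cells the same window had 10, 11 and 9 against 24, 31 and 17 counts, or 0.156 ± 0.029 against 0.243 ± 0.029 CPM. At 9300 and 9400 bp, which had the most counts after the summit of the region, the epithelial differences were 0.11 ± 0.19 and 0.33 ± 0.20 (adjusted p = 0.951 and 0.790, edgeR). The second was 0.54 without control lineage pool 1 and 0.18 without vinclozolin lineage pool 3 (adjusted p = 0.477 and 0.924, edgeR).

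Across the locus, no window and no bin passed the adjusted threshold in the epithelial lineage comparison. Of 212 windows tested 0 had an adjusted p under 0.05 by the edgeR quasi-likelihood test and 0 by the edgeR exact test, where 0.00593% of all windows tested passed in the first. At an unadjusted p-value under 0.05 there were 26 windows, 16 higher and 10 lower in the vinclozolin lineage, or 12.3% against 7.05% of all windows tested. They lay in 14 runs, so they are fewer separate sites than windows. Of 37 bins tested 0 passed by the edgeR quasi-likelihood test or the edgeR exact test, where 0.00305% of all bins passed in the first. By DESeq2, run on chromosome 8 alone, 0 passed as well, but it gave no adjusted p for the bin at 20 kb. At an unadjusted p-value under 0.05 in the edgeR quasi-likelihood test there were 8 bins, 5 higher and 3 lower, or 21.6% against 7.08%. Some of these bins are neighbors, such as those at 9 and 10 kb, so they are fewer separate sites than bins. These shares of windows and bins were not tested against the genome. The median log2 difference of the 37 bins was 0.02, against -0.0031 over all bins of the genome, with 20 bins above 0 and 17 below.

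The next smallest p-values of epithelial bins lay near the ends of the locus. The bin at 20 kb held 21, 38 and 24 counts in the control and 15, 10 and 18 in the vinclozolin lineage pools, or 0.372 ± 0.052 against 0.171 ± 0.077 CPM, with a log2 difference of -1.17 ± 0.42 (adjusted p = 0.542, edgeR). In stromal cells its difference was 0.78 ± 0.45 (SE), in the opposite direction. The bin at -19 kb had 0.970 ± 0.130 against 1.36 ± 0.149 CPM in epithelial cells, with a difference of 0.49 ± 0.20 (adjusted p = 0.611, edgeR), and 1.07 ± 0.254 against 0.952 ± 0.244 CPM in stromal cells. The bin at 2 kb, the third in counts, had 1.70 ± 0.232 against 1.77 ± 0.209 CPM in epithelial cells and 1.59 ± 0.207 against 1.97 ± 0.194 CPM in stromal cells. Its epithelial difference, 0.06 ± 0.17, was smaller than its standard error.

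**Figure D4:**
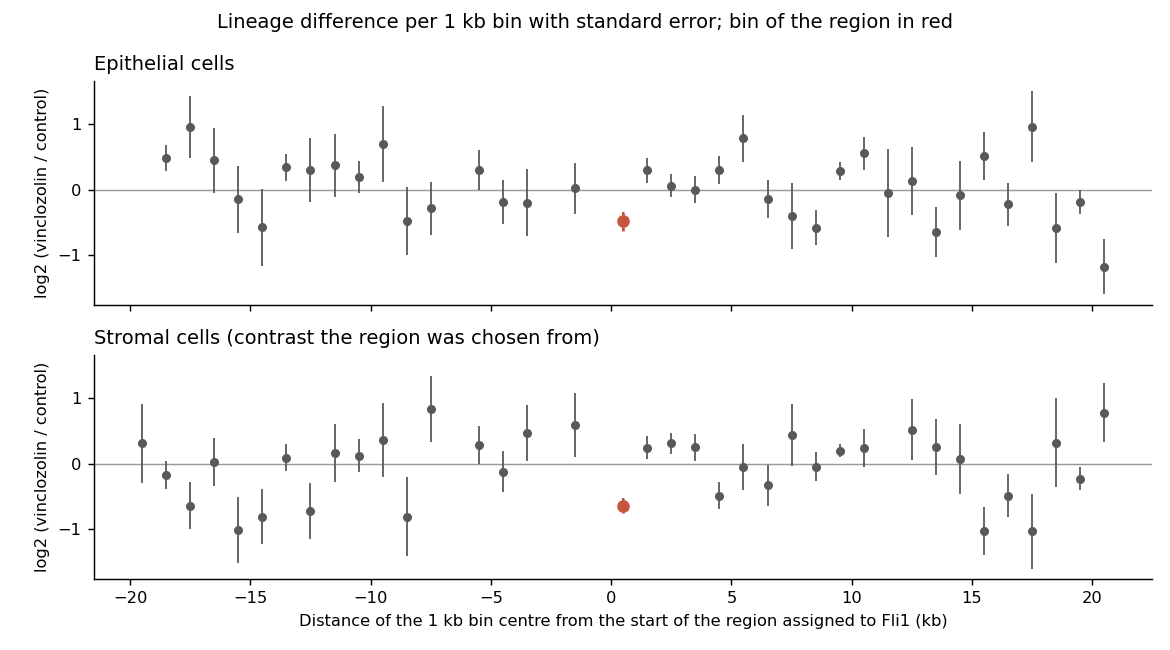
Log2 difference of the vinclozolin over the control lineage in each 1 kb bin past the count filter (dots, with bars for the standard error) against the distance of the bin's centre from the start of the region in kb, for epithelial cells above and stromal cells below. The bin of the region, in red, lies at -0.48 in epithelial and at -0.64 in stromal cells, while bins of few counts scatter to both sides of 0 with wide bars. The stromal bars belong to the contrast that chose the region and are not a test.

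Some bins had pools that did not overlap between the lineages. In epithelial cells all vinclozolin lineage pools lay below all control lineage pools in 2 of 37 bins and above them in 4, against 6.23% and 6.51% of all bins of the genome. In stromal cells the counts were 6 below and 3 above of 37, against 7.96% and 8.34%. The 4 epithelial bins above and the 6 stromal bins below were larger shares than in the genome, and the other counts were close to it. These small counts were not tested against the genome. The 6 stromal bins include the bin of the region, whose lower stromal values chose the locus. The bin of the region was the one bin that lay below in both cell types. The other epithelial bin below was the one at 20 kb, and those above were at -19, -14, 10 and 17 kb. The stromal bins above, at 1, 2 and 9 kb, were among those with the most counts, and those below, at -18, -15, -9, 4 and 17 kb apart from the region, held at most 935 counts over the 12 pools. The stromal contrast chose the locus, so its counts are a description, and the median stromal log2 difference of the 37 bins was 0.09.

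No difference between the cell types passed the threshold in the Fli1 locus. Averaged over the lineages, the whole locus had a log2 difference, epithelial over stromal, of -0.01 ± 0.038 (SE) with an adjusted p = 0.906 in the edgeR test over 41 kb tiles, in which 4.66% of all tiles passed. The bin of the region had a difference of 0.12 ± 0.10 (adjusted p = 0.746, edgeR). In the control lineage the region had 4.58 ± 1.21 CPM in epithelial and 4.44 ± 0.253 CPM in stromal cells, and in the vinclozolin lineage 3.18 ± 0.431 and 2.79 ± 0.210 CPM. Each of these differences was smaller than the larger SD of its groups. A p-value that misses the threshold does not show that the cell types were equal there.

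Among the windows and bins the same was found. Of 196 windows tested 0 had an adjusted p under 0.05 by the edgeR quasi-likelihood test, where 0.0765% of all windows passed. At an unadjusted p-value under 0.05 there were 14 windows, 8 higher and 6 lower in epithelial cells, or 7.14% against 7.09%. Of 36 bins 0 passed by edgeR or, on chromosome 8 alone, by DESeq2, where 0.594% of all bins passed in the edgeR test. The 3 bins with an unadjusted p-value under 0.05 were 8.33% of those tested, against 10.4% of all bins.

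Those 3 bins lay outside the region. The bin at 8 kb, on the left foot of the largest peak, was lower in epithelial cells, with 0.858 ± 0.324 CPM in control and 0.567 ± 0.057 CPM in vinclozolin lineage epithelial pools against 0.965 ± 0.230 and 0.923 ± 0.258 CPM in stromal pools, a log2 difference of -0.45 ± 0.18 (adjusted p = 0.306, edgeR). The windows at 8200 and 8300 bp within it had differences of -0.90 ± 0.34 and -1.04 ± 0.41 on 81 and 71 counts over the 12 pools (adjusted p = 0.469 and 0.489, edgeR). The bin at -15 kb had a difference of -0.90 ± 0.35 on 180 counts (adjusted p = 0.306, edgeR). The bin at 10 kb was higher in epithelial cells, with 0.546 ± 0.107 and 0.815 ± 0.120 CPM in the control and vinclozolin lineages against 0.453 ± 0.016 and 0.533 ± 0.075 CPM in stromal cells, a difference of 0.44 ± 0.19 (adjusted p = 0.361, edgeR). Its window at 10800 bp had the smallest p-value of the locus in this comparison, with a difference of 0.94 ± 0.36 on 74 counts (adjusted p = 0.465, edgeR).

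**Figure D5:**
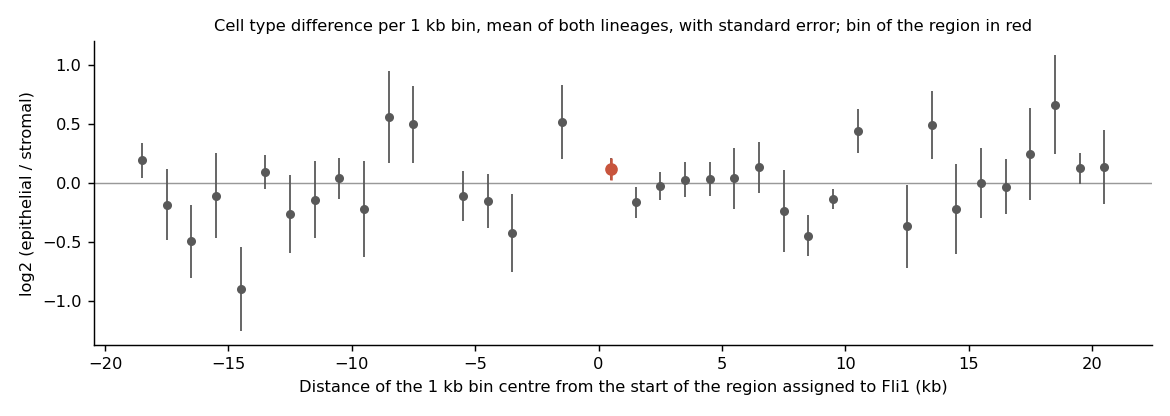
Log2 difference of epithelial over stromal cells in each 1 kb bin tested, averaged over the lineages (dots, with bars for the standard error), against the distance of the bin's centre from the start of the region in kb. The bin of the region, in red, lies at 0.12, and the bins at 8 and 10 kb lie at -0.45 and 0.44.

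The ends of the locus were set by distance and not by signal. The first window inside on the left held 20 counts over the 12 pools and the one just outside it 47. On the right the last window inside held 6 counts and the one just outside it 1.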

How the data were processed

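MeDIP-Seq DNA of 12 pools was analysed, 3 for each lineage and cell type. The authors' pipeline ran from Trimmomatic through Bowtie2 alignment (Rnor 6.0 genome) and SAMtools to the MEDIPS package, and they deposited its whole-number, unnormalized counts per 100 bp window and pool (tool versions are not given in the sources used here). The 12 RPKM columns of single pools, the group means and the authors' own comparison columns (fold changes and p-values) were not used.

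Groups were taken from the sample titles. Counts were fitted with edgeR 4.0.16 in R 4.3.3 over the whole genome, as 100 bp windows (summed count of at least 10), 1 kb bins (50) and 41 kb tiles (2000), in the 6 epithelial pools for the lineages and with this minimum in each cell type over all 12 pools, with the lineages averaged, for the cell types. TMM factors came from 1000000 sampled rows and the common dispersion from 200000. The quasi-likelihood test was used with Benjamini-Hochberg adjustment over all features tested, at a threshold of 0.05. CPM is the count per 1000000 of the pool's summed counts times its TMM factor. The fits were tested on simulated data, but only with fold changes larger than those of the region. That test therefore does not show the power for differences of this size. The p-values judge a difference against the spread between pools, which edgeR estimates partly from all features tested. The SE of a log2 difference is its size over the square root of the F statistic of this test. Both therefore rest only in part on the pools' values at the feature itself. For the stromal lineages the SE describes the fit and is not a test. Each pool mixed several rats, so variation between single rats was not measured.

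The text gives the 9 windows of the region and those next to its edges, the 3 windows and 3 bins with the most counts, and those with the smallest p in each tested comparison. Other bins and windows were named after their values were seen. The members, the rule and the tests were chosen with earlier results of these data known. A planned comparison with the gene bodies of other ETS genes and with the promoters of cell type markers was not done, since no annotation of Rnor 6.0 was used, and no sequence of the locus is given for the same reason.

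Pools with the same number were checked for a shared origin by the correlation of their deviations from the group mean over 1 kb bins. It lay between -0.070 and 0.0035 for the lineages in epithelial cells and between -0.027 and 0.0046 for the cell types. For pools of different numbers the ranges were -0.021 to 0.075 and -0.016 to 0.030. Pools with the same number were thus not more alike in these counts. Per the study's methods the tissue of each group of rats was divided into both cell types, so a fit with the rats of a lineage and number as a block was an alternative for the cell types, and a fit with the pool number as a block for the lineages. The other alternatives were the edgeR exact test, DESeq2 1.42.0 (tiles, and bins of chromosome 8 alone), median-of-ratios size factors, library totals without TMM, a stricter filter, no filter and leaving out each pool in turn.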

Additional observations from a re-analysis of the deposited data

Results flagged for a closer look

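In the 1 kb bin at 17 kb the lineages separated in opposite directions in the 2 cell types. In epithelial cells the control lineage pools held 8, 13 and 3 counts and the vinclozolin lineage pools 17, 29 and 12, or 0.0412 to 0.147 against 0.162 to 0.262 CPM, with a log2 difference of 0.96 ± 0.54 (SE). In stromal cells they held 9, 11 and 16 against 7, 9 and 10 counts, or 0.158 to 0.218 against 0.0632 to 0.140 CPM, with a difference of -1.03 ± 0.57 (SE). The bin was flagged for this pattern after the values were seen, and the difference between the cell types was not tested. Of all bins of the genome, 6.51% separated upward in epithelial cells and 7.96% downward in stromal cells. The bin held 144 counts over the 12 pools, and its epithelial difference had an adjusted p = 0.750 in the edgeR test.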

How the results depend on the processing

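In the epithelial lineage and cell type comparisons no window or bin of the locus passed an adjusted p of 0.05 under any alternative run, with 0 in each. The alternatives were compared for the bin of the region, the whole locus, the 5 windows of the peaks of the region in epithelial cells, and the windows and bins with the most counts (in epithelial cells) or the smallest p-values. Not every alternative was available for each. Windows had no size factor alternatives and no DESeq2 fit. Stromal values had only the size factor, library total, block and single pool omission fits. A bin or window below the count filter of a fit has no value there. In the fits available, no alternative other than leaving out 1 pool changed a direction, and none changed a side of the threshold. The other differences in the text, such as those of the bin at 17 kb, the window at 900 bp and the other stromal bins, were not compared between the alternatives. With the replicate block the bin of the region had a log2 difference of -0.46 in epithelial cells (adjusted p = 0.756, edgeR) and 0.10 between the cell types, and the whole locus 0.05 and -0.01, and the block changed no call. Leaving out each pool in turn, the epithelial lineage difference of that bin lay between -0.61 and -0.25 (adjusted p from 0.256 to 0.841 by edgeR), and it came to -0.25 without control pool 1, the one omission that moved it by over 1.5 times. The cell type difference of the bin lay between -0.0024 and 0.16, at the lower end without the same pool, and that of the whole locus between -0.041 and 0.0091, at the upper end without epithelial control pool 3. The epithelial lineage difference of the locus lay between 0.0067 and 0.107. The epithelial differences of the window at 9300 bp (-0.0013 to 0.20) and of the bin at 2 kb (-0.037 to 0.17) also changed sign. They fell below 0 without vinclozolin pool 3 (-0.0013 and -0.037), and that of the bin also without control pool 3 (-0.012). The right peak windows lay between -0.52 and -0.13 at 700 bp and between -0.51 and -0.12 at 800 bp. The cell type difference of the window at 8300 bp came to -0.65 without stromal control pool 2. The stromal difference of the bin lay between -0.68 and -0.59 and that of the locus between -0.080 and -0.036. Depth limits single windows most. Of the 410 windows 212 held enough counts for the epithelial test and 196 for the cell types.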
